A study of Rattus norvegicus with 18 samples.

Results

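The 10 genes described here code for adhesion molecules of neurons and Schwann cells, some of which act at the node of Ranvier or along the internode. The 10 are Gldn, Nfasc, Nrcam, L1cam, Ncam1, Negr1, Cadm1, Cadm2, Cadm3 and Cadm4. They were taken by gene name from the deposited peak list, and they are 10 of 32883 genes with an RNA count, of which 9 of the 12925 genes with enough reads to be tested. All peaks that the list gives to these genes were followed, 167 of 215951. The genes were picked with RNA changes of these libraries in view, so their RNA values, and any call made on them, are a description and not a test. DNA measurements come from other libraries and were tested.

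Primary rat Schwann cells, the glia of peripheral nerve, were studied at passage 3 in a group treated with vitamin C (VitC) and in a control group that was not. RNA depleted of ribosomal RNA, DNA precipitated with an antibody to 5-hydroxymethylcytosine (hMeDIP) and unprecipitated input DNA were sequenced, each in 3 VitC and 3 control libraries, 18 in all. The labels do not state the dose or length of the treatment, nor the strain or age of the rats. Nor do they say whether replicates were separate cultures or animals, so a p-value here speaks of the spread between libraries, which may be technical. RNA levels are given as CPM of the reads in genes, and hMeDIP and input levels as CPM of the reads in peaks. Peak levels are not corrected for width, so a wide peak can have a high level for its width alone.

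Gliomedin, the product of Gldn, is released by Schwann cell microvilli and binds the L1-family proteins neurofascin and NrCAM on the axon, which gathers sodium channels into the node. Along the internode, the nectin-like protein Cadm4 on the Schwann cell binds Cadm family partners on the axon, and a glial form of neurofascin joins the paranodal junction. L1cam and Ncam1 are typical of immature and non-myelinating Schwann cells. 5-Hydroxymethylcytosine is made from 5-methylcytosine by TET dioxygenases, for which vitamin C is a cofactor, and in mammals it lies mostly at CG dinucleotides.

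RefSeq promoters of the rat build GRCr8 were found for 6 of the 10 genes (Gldn, Nfasc, Negr1, Cadm2, Cadm3 and Cadm4). The 250 bases before the annotated start are shown for 4 genes. Gldn, Cadm2 and Negr1 had the largest RNA differences. Cadm4 had the member peak of highest hMeDIP level, which was also the widest (4380 bases) and lay over the start of its gene. The sequences run 5′ to 3′ on the gene's strand, and capitals mark CG, which reads the same on both strands.
Gldn (chr8:63575020-63575269, plus strand): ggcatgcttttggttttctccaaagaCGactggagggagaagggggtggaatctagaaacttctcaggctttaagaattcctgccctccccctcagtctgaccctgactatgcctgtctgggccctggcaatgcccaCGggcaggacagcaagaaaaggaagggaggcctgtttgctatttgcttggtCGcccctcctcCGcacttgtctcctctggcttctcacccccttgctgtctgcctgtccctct
Cadm2 (chr11:18971887-18972136, minus strand): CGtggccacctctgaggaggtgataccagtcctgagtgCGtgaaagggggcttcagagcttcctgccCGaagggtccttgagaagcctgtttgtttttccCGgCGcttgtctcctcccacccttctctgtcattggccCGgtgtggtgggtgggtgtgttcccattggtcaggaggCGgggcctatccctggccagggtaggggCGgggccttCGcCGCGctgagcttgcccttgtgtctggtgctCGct
Negr1 (chr2:248283226-248283475, plus strand): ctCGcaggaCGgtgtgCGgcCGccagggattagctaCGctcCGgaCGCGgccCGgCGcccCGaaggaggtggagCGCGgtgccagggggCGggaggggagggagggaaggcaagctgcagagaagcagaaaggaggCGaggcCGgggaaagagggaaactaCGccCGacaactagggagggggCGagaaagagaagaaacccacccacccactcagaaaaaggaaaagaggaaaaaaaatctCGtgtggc
Cadm4 (chr1:89202839-89203088, plus strand): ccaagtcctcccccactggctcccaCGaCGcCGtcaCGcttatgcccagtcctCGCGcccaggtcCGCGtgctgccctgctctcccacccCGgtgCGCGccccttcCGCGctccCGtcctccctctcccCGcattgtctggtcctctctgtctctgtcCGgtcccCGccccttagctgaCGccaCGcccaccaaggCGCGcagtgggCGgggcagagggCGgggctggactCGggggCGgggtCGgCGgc

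The 4 windows differ in how many CG they hold. The window of Gldn has 4, and 62.6% of the 33469 RefSeq windows of this length hold as many or more. That of Cadm2 has 12 (31.5% of windows hold as many or more), that of Negr1 has 20 (16.7%) and that of Cadm4 has 27 (7.69%). The window of Cadm3, not shown, has 13 (29.4%), and those at the 2 annotated starts of Nfasc have 4 and 2. At least 1 CG is found in 92.2% of all windows, and their median is 5. The deposited peaks come with no named genome build, so the RefSeq coordinates are not those of the peaks below, and the RefSeq start need not be the start used by the peak list.

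Reads in genes numbered 23381814 to 33173282 per RNA library, and reads in peaks 24020306 to 39899445 per hMeDIP library and 7201638 to 9521037 per input library. In hMeDIP, replicates 1 and 3 of each group differed by less than sampling noise (chi-square per degree of freedom 0.896 in VitC and 0.963 in control libraries), so they were summed and counted as 1 sample, which leaves 2 samples a group. In RNA, VitC replicate 1 stood apart from VitC replicates 2 and 3 (chi-square per degree of freedom 27.4 and 38.3, against 5.26 between replicates 2 and 3), and values without it are given where they differ. Schwann cell markers were expressed in both groups: Sox10 averaged 655 ± 26.2 CPM in VitC and 602 ± 11.6 CPM in control libraries, and Erbb3 1403 ± 12.7 CPM in VitC and 1572 ± 32.3 CPM in control libraries (SD, n = 3 each). Of the markers reported, Gfap and Cdh19 rose while S100b, Gap43 and Erbb3 fell. Of 10 neuronal markers, Snap25, Syt1, Rbfox3, Elavl4 and Stmn2 had at most 11 reads in any library, and the list summed to 115 to 125 CPM in VitC and 95.8 to 116 CPM in control libraries, with Tubb3 and Map2 higher and Nefl lower. The fibroblast list summed to 9276 to 10787 CPM in VitC and 4516 to 4709 CPM in control libraries, nearly all of it Col1a1, while Dcn was at 0 in every library and Pdgfra, Pi16 and Gsn fell. Pericyte and smooth muscle markers summed to 194 to 221 CPM in VitC and 78.3 to 81.3 CPM in control libraries, with Pdgfrb, Des and Tagln higher and Rgs5, Acta2 and Cnn1 at no more than 10 reads. Perineurial markers summed to 438 to 451 CPM in VitC and 208 to 235 CPM in control libraries (Itgb4 and Ntn4 higher, Slc2a1 and Sfrp4 lower), endothelial markers to 3.09 to 4.29 CPM in VitC and 1.38 to 1.83 CPM in control libraries, with Cdh5 at 0 throughout, and macrophage markers to no more than 2.004 CPM in any library. The part of these other cell types' markers in the RNA differences below was not tested.

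In RNA, 6 of the 9 tested genes were called higher with VitC by edgeR at an adjusted p under 0.05, and 7 by DESeq2, which added Nrcam; none of the 9 was called lower by either. Of all 12925 genes tested, 40.1% were called and 19.1% were called higher. Because the genes were picked on this contrast, nothing is read from their count. Calls of single members in RNA, here and below, describe the fit and carry no weight as tests. The ratios of the group means ranged from 13.9 for Gldn to 0.976 for Ncam1, and the 6 genes called higher were Gldn, Cadm2, Negr1, Cadm3, L1cam and Cadm4. In bulk RNA, fewer cells of a type and less RNA per cell cannot be told apart.

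Gldn (ENSRNOG00000024082), the glial ligand of the node, had 20.3, 25.9 and 23.3 CPM in VitC replicates 1 to 3, against 1.86, 1.42 and 1.72 CPM in control replicates 1 to 3. All VitC libraries lay far above all control libraries, and the groups averaged 23.2 ± 2.84 and 1.67 ± 0.227 CPM (SD, n = 3 each). The ratio of the means was 13.9 and the log2 change 3.81 ± 0.14 (SE).

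**Figure D1:**
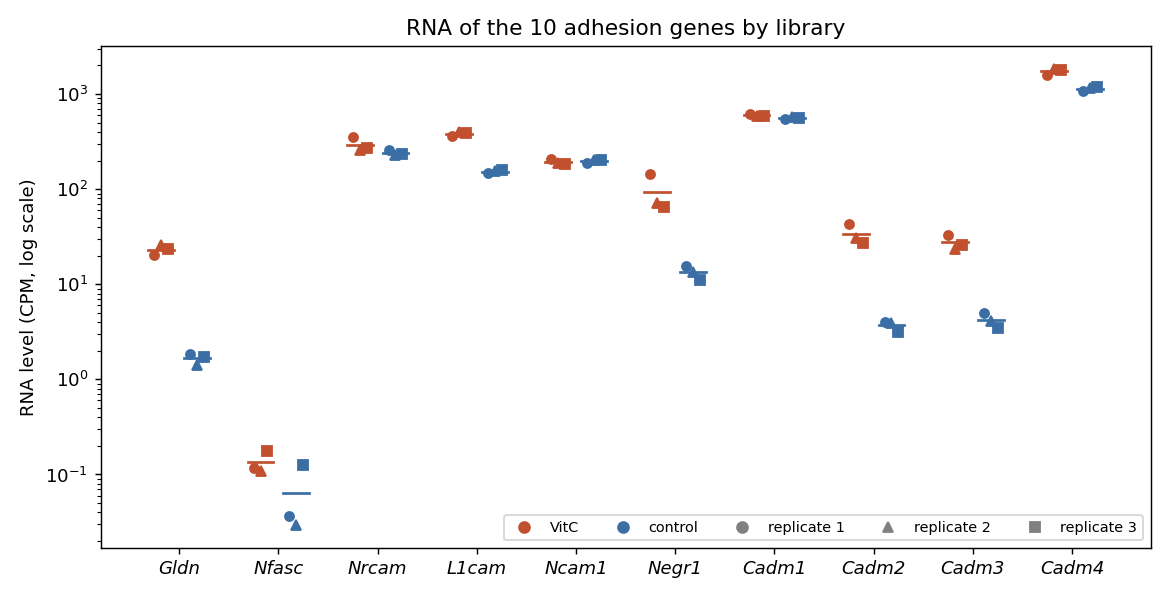
RNA level in CPM (log axis) of each gene in each library, VitC in red left of control in blue; marker shapes give the replicate and lines the mean of 3 libraries. Gldn, Negr1, Cadm2 and Cadm3 are separated by the widest gaps, Ncam1 overlaps, and Nfasc rests on 1 to 5 reads per library.

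The L1 family members differed among themselves. Nfasc (ENSRNOG00000030515), whose product is both an axonal partner of gliomedin and a glial paranodal protein, had 3, 3 and 5 reads in VitC libraries and 1, 1 and 3 reads in control libraries, too few to be tested. Nrcam (ENSRNOG00000004067), which in nerve is found at nodes and is also shed by Schwann cells, had 350, 261 and 274 CPM in VitC libraries, against 259, 228 and 236 CPM in control libraries. The groups did not overlap, by a narrow margin (54.7% of all tested genes do not overlap), and the log2 change of 0.29 ± 0.11 was not called. Without VitC replicate 1, the highest of the 6, it was 0.15. It was called higher with DESeq2, with no filter on low counts, with the replicate block and without VitC replicate 2. L1cam (ENSRNOG00000061230), an adhesion molecule of unmyelinated axons and of the Schwann cells around them, had 367, 397 and 389 CPM in VitC libraries, against 147, 155 and 158 CPM in control libraries. Its groups were clearly apart, with a log2 change of 1.32 ± 0.06.

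Ncam1 (ENSRNOG00000031890), the neural cell adhesion molecule, had 208, 188 and 183 CPM in VitC libraries, against 187, 202 and 204 CPM in control libraries. The groups overlapped, and the log2 change was -0.04 ± 0.07. Negr1 (ENSRNOG00000021410), a lipid-anchored adhesion molecule of the IgLON family known mainly from neurons, had 143, 72.0 and 64.7 CPM in VitC libraries, against 15.5, 13.5 and 11.01 CPM in control libraries. Every VitC library was above every control library, but VitC replicate 1 was 2.10 times the mean of the other two. The log2 change was 2.80 ± 0.30 with that library and 2.35 without it.

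The nectin-like Cadm genes ranged in the ratio of their means from 1.07 for Cadm1 to 9.03 for Cadm2. Cadm2 (ENSRNOG00000030840), known as a neuronal member, had 42.8, 30.3 and 27.3 CPM in VitC libraries, against 3.98, 3.96 and 3.18 CPM in control libraries, a log2 change of 3.16 ± 0.19. Cadm3 (ENSRNOG00000003365), an axonal partner of Cadm4, had 33.3, 23.5 and 25.9 CPM in VitC libraries, against 5.01, 4.08 and 3.48 CPM in control libraries, a log2 change of 2.71 ± 0.17. In both genes VitC replicate 1 was the highest library, and the groups stayed apart without it, with log2 changes of 2.95 for Cadm2 and 2.55 for Cadm3. Cadm4 (ENSRNOG00000024243), the glial internodal member, had 1589, 1849 and 1772 CPM in VitC libraries, against 1080, 1159 and 1178 CPM in control libraries. The groups did not overlap, and its log2 change was 0.61 ± 0.07. Cadm1 (ENSRNOG00000018778), which in nerve is found on axons and on Schwann cells, had 617, 594 and 582 CPM in VitC libraries, against 541, 568 and 559 CPM in control libraries, and its change of 0.10 ± 0.05 was not called although the groups did not overlap.

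The libraries did not order the genes in one way. Among VitC libraries, replicate 1 was the highest for Nrcam, Ncam1, Negr1, Cadm1, Cadm2 and Cadm3 and the lowest for Gldn, L1cam and Cadm4. The genes whose RNA pattern over the 6 libraries was closest to that of Gldn, by Euclidean distance of centred log2 CPM, were Slc7a11, a cystine transporter (distance 0.466), Postn, a matricellular protein (0.815), Itga11, a collagen-binding integrin chain (0.825), Cgnl1, a junction protein (0.864), and Ldb2, a LIM-domain binding cofactor (0.955). Slc7a11, the closest, had 24.0 ± 0.753 CPM in VitC libraries and 1.996 ± 0.619 CPM in control libraries (SD, n = 3 each).

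Most other genes of the node and microvilli did not pass the test. Of 15 tested scaffold genes, 6 rose and 1 fell, with a median log2 change of 0.10, beside a median of -0.01 over all tested genes, of which 19.1% rose and 21% fell. Vcan, a proteoglycan, rose by 1.002 ± 0.14 (adjusted p = 6.28e-04), Sptbn4, the beta-spectrin of nodes, by 0.79 ± 0.12 (adjusted p = 0.00136), and Sdc4, a syndecan, by 0.57 ± 0.07 (adjusted p = 4.71e-04). Slc9a3r1, an adaptor of microvillar ezrin proteins, fell by 0.68 on the log2 scale (adjusted p = 1.36e-04), whereas Ezr itself, at 304 ± 28.4 CPM in VitC and 308 ± 7.84 CPM in control libraries, was not called (adjusted p = 0.872).

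Of 12 tested genes of the paranode and internode, 3 rose, the other 9 were not called, and the median was 0.01. The 3 were the membrane scaffolds Epb41l3 (0.81 ± 0.06, adjusted p = 2.74e-05) and Epb41l2 (0.64 ± 0.09, adjusted p = 9.95e-04), and Mpp6, a polarity adaptor known in mouse to work with Cadm4 in Schwann cells (0.31 ± 0.07, adjusted p = 0.00951). Of 17 tested immunoglobulin-type adhesion genes outside the 10, 7 rose and 3 fell, with a median of 0.32. The IgLON relatives of Negr1 did not move together. Ntm rose to 4.33 ± 0.905 CPM in VitC libraries, against 1.42 ± 0.135 CPM in control libraries (log2 change 1.62 ± 0.19, adjusted p = 2.98e-04), and Opcml to 16.3 ± 4.66 CPM against 5.84 ± 0.744 CPM in controls (1.47 ± 0.20, adjusted p = 6.44e-04). Lsamp, with at most 20 reads in a library, fell to 0.164 ± 0.104 CPM in VitC libraries, against 0.512 ± 0.0983 CPM in control libraries (log2 change -1.66 ± 0.44, adjusted p = 0.0172), and Iglon5 did not pass the test (0.52 ± 0.24, adjusted p = 0.12). Bcam, a laminin receptor, rose by 1.05 ± 0.10 (adjusted p = 6.3e-05).

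In hMeDIP, the peaks of the 10 genes went both ways in equal number. Of 167 peaks, 60 were higher and 60 lower with VitC at an adjusted p under 0.05, and 47 were not called, a share of 35.9% in each direction. Over all 215951 peaks, 73.2% were called, 36.9% higher and 36.3% lower, and over the 109330 peaks that have a gene, as all member peaks do, 44.2% were higher and 28.7% lower. The members' share of higher peaks was thus below, and that of lower peaks above, those of peaks with a gene. That difference was not tested. It rests largely on Negr1 (72 peaks, 22 higher and 31 lower) and Nrcam (39 peaks, 15 and 15). Gldn, Ncam1, Cadm1, Cadm3 and Cadm4 had more higher than lower peaks, Nfasc had as many of each, and L1cam and Cadm2 had lower ones only. DESeq2 called 30 member peaks higher and 54 lower, and 20.2% of all peaks higher and 31.8% lower. With hMeDIP libraries scaled by all counted reads instead of TMM factors, the median log2 change over all peaks was 0.49 in place of 0.05, and 99 member peaks were higher and 39 lower; over all peaks, 71.8% of the called ones were then higher, against 50.4% with TMM. Reads in peaks were 40.8% to 43.9% of the counted hMeDIP reads in VitC and 30.8% to 35.7% in control libraries, and 8.43% to 8.65% of those in input libraries. Changes below are relative to the TMM scale.

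Input DNA gave no called peak among the 167, nor among the 215759 tested in all (0%), by edgeR or by DESeq2. At an unadjusted p under 0.05, 11 member peaks and 4.86% of all peaks differed, and the members' input log2 changes ran from -0.60 to 0.55. A fit that asked whether the hMeDIP change of a peak differed from that of input called 34 member peaks higher and 50 lower, with 21% higher and 28% lower over all peaks. Of the 60 peaks higher and the 60 lower in hMeDIP alone, 33 and 49 also passed that test in the same direction.

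The direction of a peak's change followed its place in the deposited list. The list runs through the chromosomes in 2 passes, the second from entry 68433 on. Of the 51 member peaks in the first pass, 44 were lower and the other 7 not called (86.3% lower; over the whole first pass 87.1% were lower and 2.89% higher, and over its peaks with a gene 83% and 4.24%). Of the 116 in the second pass, 60 were higher and 16 lower (51.7% and 13.8%; over the whole second pass 52.6% and 12.8%, and over its peaks with a gene 57.1% and 11.2%). The first pass held 51 of the 167 member peaks and 26657 of the 109330 peaks with a gene. Over all peaks the median log2 change was -0.99 in the first pass and 0.30 in the second. Nothing in the labels or headers says what the passes stand for or on which libraries the peaks were called, and their part in the differences between genes was not tested.

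**Figure D2:**
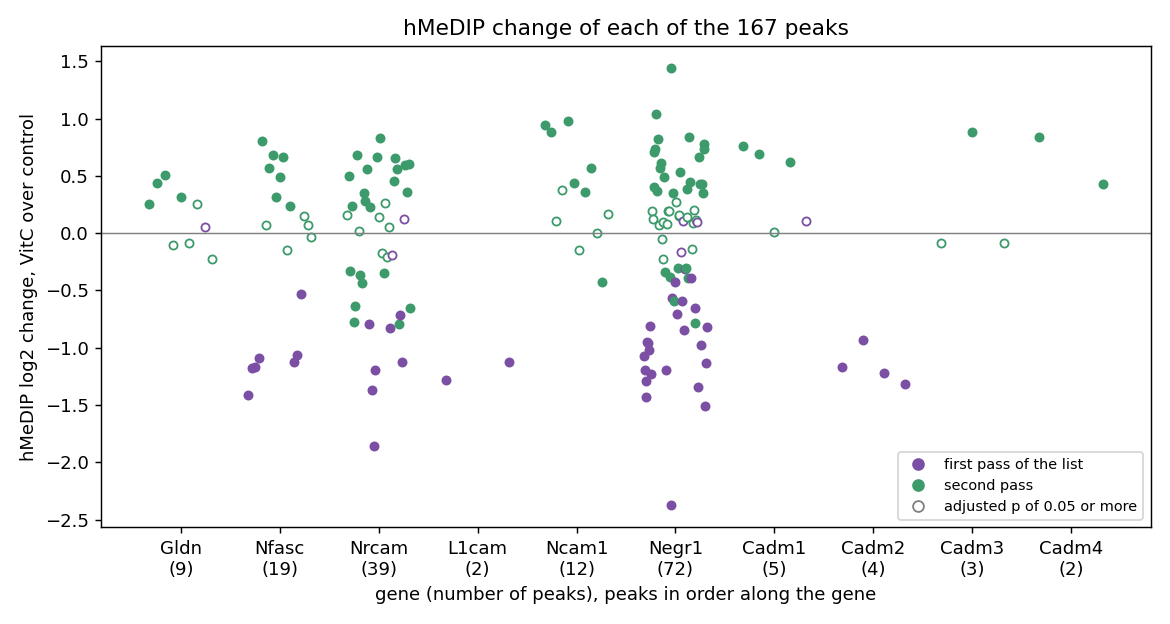
hMeDIP log2 change, VitC over control, of every peak of the 10 genes, in order along each gene; colour gives the pass of the deposited list and open points were not called. First-pass peaks lie at or below 0.12, and L1cam and Cadm2 hold first-pass peaks alone.

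Summed over its peaks, hMeDIP was higher for 4 genes (Gldn, Ncam1, Cadm1 and Cadm4) and lower for 4 (Nrcam, L1cam, Negr1 and Cadm2), with 37.3% of all 17003 genes with peaks higher and 37.3% lower. Values of the sums are given for the sample of replicates 1 and 3 and then for replicate 2. Genes with large RNA differences stood on both sides, but their peaks differed in the pass of the list. All 4 peaks of Cadm2 were in the first pass, and 8 of the 9 of Gldn in the second. The part of the passes in these sums was not tested. Cadm2 had 10.7 and 9.16 CPM in VitC, against 21.6 and 24.3 CPM in control libraries (log2 change -1.16 ± 0.09, edgeR adjusted p = 6.68e-14), while Gldn had 109 and 110 CPM in VitC, against 99.8 and 90.3 CPM in control libraries (0.18 ± 0.04, edgeR adjusted p = 1.1e-04). Among the 609 genes of the whole series with RNA called higher by more than 1 on the log2 scale, 40.1% had a higher and 35.6% a lower sum, and the median change of their sums was 0.01. Among all 2284 genes with RNA called higher and a sum, 52.9% had a higher and 22.8% a lower sum (median 0.13). The shares were 43.7% and 29.6% (median 0.08) among the 2024 genes with RNA called lower. Among the 5713 whose RNA was not called they were 46.3% and 26.7% (median 0.10).

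**Figure D3:**
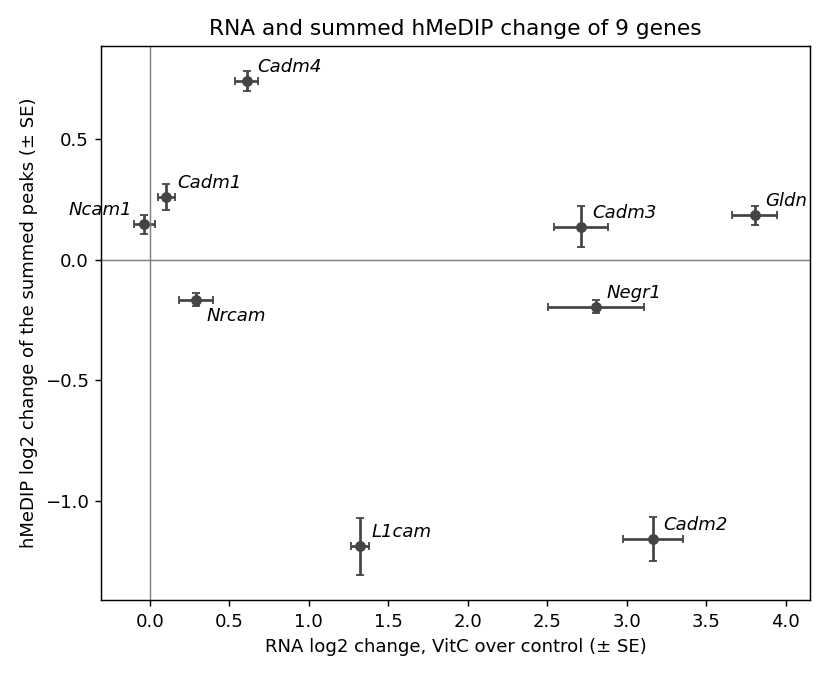
Log2 change of RNA (x axis) and of the summed hMeDIP peaks (y axis), VitC over control, for the 9 genes with a tested RNA; bars are ± SE. Gldn, Cadm3, Negr1 and Cadm2 share large RNA changes and run from 0.18 to -1.16 in hMeDIP.

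At Gldn the hMeDIP differences were small and mostly upward. Of its 9 peaks, 4 were higher and 5 not called, with changes of -0.22 to 0.51. Only 1 of the 4, the peak of smallest p, passed the test against input (adjusted p = 0.00159). The promoter peak did not (adjusted p = 0.207). The peak at chr8:58868972-58870283, which the list classes as a promoter peak and which ends about 234 bases before the start, had 10.8 and 10.9 CPM in VitC, against 9.29 and 8.68 CPM in control libraries (0.26 ± 0.07, adjusted p = 0.00219), a call that DESeq2 did not make. The peak of smallest p, within the gene at chr8:58881177-58883807, had 11.1 and 11.7 CPM in VitC, against 8.74 and 7.61 CPM in control libraries (0.43 ± 0.08, adjusted p = 2.64e-06). Both sets of values were apart between the groups, as were those of 86% of all peaks. The gene's peaks were a median of 5.00 times input in VitC and 3.67 times in control libraries. Over all peaks that median ratio, from all counted reads, was 4.42 in VitC and 3.59 in control libraries.

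At Nfasc, 7 of 19 peaks were higher and 7 lower, and the 2 kinds lay in blocks. All 7 lower peaks were in the first pass of the list and all 7 higher ones in the second. The first 4 peaks, up to 8.3 kb from the start, were all lower and all in the first pass. They included the 3 promoter peaks of the gene, of which that at chr13:49521666-49522230, from about 185 bases after the start, had 1.99 and 2.63 CPM in VitC, against 4.94 and 5.23 CPM in control libraries (-1.18 ± 0.13, adjusted p = 9.96e-11). The other promoter peaks changed by -1.42 and -1.17. The strongest higher peak followed at chr13:49508773-49509435, with 3.76 and 4.27 CPM in VitC, against 2.32 and 2.13 CPM in control libraries (0.81 ± 0.13, adjusted p = 8.62e-07). The peak of highest level, at chr13:49455258-49456746, had 9.54 and 10.4 CPM in VitC, against 8.17 and 7.44 CPM in control libraries (0.32 ± 0.08, adjusted p = 5.01e-04), a call that DESeq2 did not make. That peak did not pass the test against input (adjusted p = 0.0821). A second block of lower peaks followed, also in the first pass. Further in, at chr13:49378066-49378818, hMeDIP was 5.41 and 4.36 CPM in VitC, against 9.83 and 11.8 CPM in control libraries (-1.06 ± 0.09, adjusted p = 2.38e-13). Input at that peak was also lower, 4.81 ± 0.531 CPM in VitC and 6.62 ± 0.171 CPM in control libraries (SD, n = 3 each; unadjusted p = 0.00858, adjusted p = 0.987), and the change over input was -0.61 (adjusted p = 0.00673). The sum over the gene was not called (-0.05 ± 0.03, adjusted p = 0.168) and was 0.38 when scaled by all counted reads.

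Nrcam held 39 peaks, 15 higher and 15 lower, over a span in which a stretch without peaks parts the last 5 from the others. Its sum was 337 and 332 CPM in VitC, against 377 and 372 CPM in control libraries (-0.17 ± 0.03, adjusted p = 1.38e-06), and the sign turned to 0.27 when scaled by all counted reads. The lower peak of smallest p, at chr6:64358284-64359106, had 3.46 and 3.62 CPM in VitC, against 9.08 and 9.10 CPM in control libraries (-1.37 ± 0.10, adjusted p = 2.35e-16). Its neighbour 458 bases away, in the other pass of the list, changed in the opposite direction (0.23). That neighbour did not pass the test against input (adjusted p = 0.239). The higher peak of smallest p, at chr6:64346839-64348338, had 10.2 and 10.4 CPM in VitC, against 6.65 and 7.78 CPM in control libraries (0.56 ± 0.08, adjusted p = 7.92e-08). The changes of the gene's peaks ran from -1.86 to 0.83. The peak of highest level, at chr6:64439720-64441908, had 11.1 and 11.4 CPM in VitC, against 14.2 and 14.7 CPM in control libraries (-0.35 ± 0.07, adjusted p = 1.01e-05), but its change was 0.09 when scaled by all counted reads. That peak did not pass the test against input (adjusted p = 0.0631). Around the first start, the peak at chr6:64299614-64300876 was higher, with 5.14 and 4.71 CPM in VitC, against 3.59 and 3.40 CPM in control libraries (0.495 ± 0.11, adjusted p = 1.46e-04). It did not pass the test against input (adjusted p = 0.177). The peak at chr6:64295242-64295901 was not called (0.16 ± 0.14, adjusted p = 0.312). Peaks lay over 2 internal transcript starts. That at chr6:64831609-64832269 was higher (3.71 and 3.45 CPM in VitC, against 2.42 and 2.25 CPM in control libraries; 0.61 ± 0.13, adjusted p = 8.93e-05), and that at chr6:64789752-64790654 was not called (0.12 ± 0.11, adjusted p = 0.305).

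L1cam, on the X chromosome, had 2 peaks, both lower and both in the first pass. The peak at chrX:156912121-156912672, from about 776 bases after the start, had 1.402 and 1.79 CPM in VitC, against 3.35 and 4.59 CPM in control libraries (-1.28 ± 0.16, adjusted p = 1.34e-09), and the second, at chrX:156914900-156915421, had 1.68 and 1.51 CPM in VitC, against 3.28 and 4.04 CPM in control libraries (-1.13 ± 0.15, adjusted p = 8.98e-09). The groups were apart at both, as at 86% of all peaks, while RNA of L1cam was higher. On the X chromosome 73.5% of peaks were lower, and 98.1% of those in the first pass.

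Ncam1, whose RNA was not called, had 6 of 12 peaks higher and 1 lower, all in the second pass. The first, at chr8:53892326-53892870, had 3.50 and 3.03 CPM in VitC, against 1.79 and 1.57 CPM in control libraries (0.94 ± 0.15, adjusted p = 3.79e-07). The peak at chr8:53872851-53873523, classed to the promoter of an internal transcript start, had 3.28 and 2.85 CPM in VitC, against 1.39 and 1.999 CPM in control libraries (0.98 ± 0.16, adjusted p = 6.75e-07). The peak with the highest level was the lower one, at chr8:53841794-53842624, with 10.2 and 11.5 CPM in VitC, against 14.5 and 13.9 CPM in control libraries (-0.43 ± 0.07, adjusted p = 6.97e-07); its change was 0.04 when scaled by all counted reads. That peak, 16.3 times input in VitC and 13.6 times in control libraries, did not pass the test against input (adjusted p = 0.59).

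Negr1 held 72 of the 167 peaks, against a median of 3 peaks per gene in the list, and 94 genes, Negr1 included, held as many or more. Of these, 31 were lower and 22 higher. The first 9, up to 206 kb from the start, were all lower and all in the first pass, with changes of -1.43 to -0.81, and the other 63 comprised 22 higher and 22 lower peaks; this split was chosen after the values were seen. The promoter peak at chr2:262914789-262915528, from about 462 bases after the start, had 3.72 and 3.45 CPM in VitC, against 7.39 and 8.12 CPM in control libraries (-1.08 ± 0.10, adjusted p = 1.28e-12). The peak of highest level, at chr2:263282429-263284589, did not pass the test against input (adjusted p = 0.241). In hMeDIP alone it was called higher, with 12.7 and 12.4 CPM in VitC, against 11.3 and 10.5 CPM in control libraries (0.19 ± 0.07, adjusted p = 0.0136). That call was lost with DESeq2, without either control sample and without the VitC sample of replicates 1 and 3. The largest changes of all member peaks in both directions lay 5.42 kb apart in the gene. At chr2:263309599-263310137 hMeDIP was 2.52 and 2.46 CPM in VitC, against 0.998 and 0.723 CPM in control libraries (1.44 ± 0.19, adjusted p = 4.89e-09). At chr2:263315560-263316076 it was 0.931 and 0.868 CPM in VitC, against 4.68 and 4.81 CPM in control libraries (-2.38 ± 0.15, adjusted p = 2.26e-17). Input at the lower one was 2.98 ± 1.09 CPM in VitC and 2.84 ± 0.488 CPM in control libraries (SD, n = 3 each). From all counted reads, hMeDIP of that peak was 1.57 times input in VitC and 6.32 times in control libraries. The sum of Negr1 was 426 and 412 CPM in VitC, against 480 and 481 CPM in control libraries (-0.20 ± 0.03, adjusted p = 4.42e-08), and was 0.23, not called, when scaled by all counted reads.

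**Figure D4:**
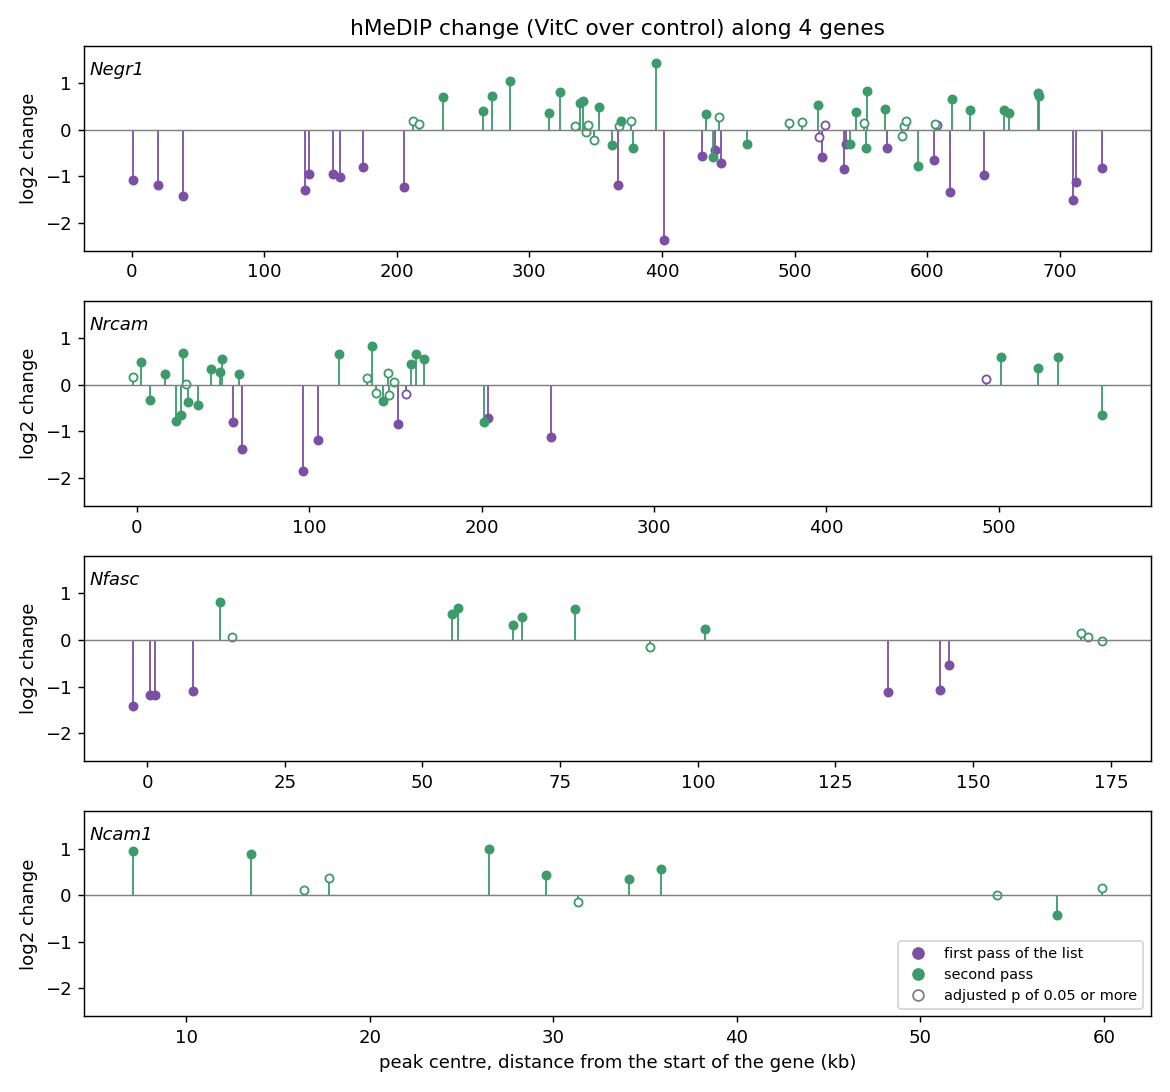
hMeDIP log2 change, VitC over control, at each peak against the distance of its centre from the gene's start in kb, for Negr1, Nrcam, Nfasc and Ncam1; colour gives the pass of the list and open points were not called. The 9 peaks nearest the start of Negr1 and the 4 nearest that of Nfasc are lower and all in the first pass. Of the 12 peaks of Ncam1, all in the second pass, 6 are higher, 1 is lower and 5 were not called.

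Across the 10 genes, 25 pairs of neighbouring peaks were called in opposite directions. In 13 of them the peaks came from different passes and in 12 both came from the second. The closest such pair, 115 bases apart in Negr1, had changes of -0.39 and 0.84, both from the second pass. The lower peak of that pair did not pass the test against input (adjusted p = 0.429), and the higher one did (adjusted p = 0.0382). Of the 12 member peaks in a promoter class, 5 were higher and 5 lower (over all peaks of such a class, 42.7% were higher and 30.2% lower). The higher ones were all in the second pass of the list. The lower ones were all in the first pass and lay in Nfasc, L1cam and Negr1. Of the 155 in gene bodies, 55 were higher and 55 lower, 35.5% each, beside 44.5% higher and 28.4% lower over all gene-body peaks. Negr1 and Nrcam weigh most in the gene-body shares.

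The Cadm genes went both ways in hMeDIP. Cadm4 had the largest rise of the 10 sums, 118 and 126 CPM in VitC, against 73.2 and 72.0 CPM in control libraries (0.74 ± 0.04, adjusted p = 2.72e-18). Its promoter peak at chr1:81363139-81367518 covered the start and about 2000 bases before it, and had 46.3 and 49.7 CPM in VitC, against 27.5 and 25.4 CPM in control libraries (0.84 ± 0.05, adjusted p = 1.31e-17). Input there was 29.1 ± 1.02 CPM in VitC and 28.1 ± 1.13 CPM in control libraries (SD, n = 3 each). The change over input was 0.78 (adjusted p = 5.78e-12). From all counted reads, a scale other than these CPM, hMeDIP was 8.18 times input in VitC and 3.61 times in control libraries. The adjoining peak at chr1:81367698-81369952 was also higher, with 16.6 and 17.1 CPM in VitC, against 12.1 and 13.4 CPM in control libraries (0.43 ± 0.07, adjusted p = 2.14e-07).

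Cadm2 had 4 peaks, all within the gene, lower and in the first pass. The highest, at chr11:4297181-4297634, had 1.83 and 1.44 CPM in VitC, against 3.75 and 4.30 CPM in control libraries (-1.22 ± 0.14, adjusted p = 6.6e-10), and the others changed by -1.31 to -0.93. The gene's peaks were a median of 2.54 times input in VitC and 4.48 times in control libraries. Cadm1 had 3 of 5 peaks higher, led by chr8:52132098-52132668 with 3.77 and 3.84 CPM in VitC, against 2.42 and 1.87 CPM in control libraries (0.76 ± 0.14, adjusted p = 3.78e-06). Its most strongly marked peak, at chr8:52171403-52172274, was not called, with 10.5 and 10.96 CPM in VitC, against 10.8 and 10.3 CPM in control libraries (0.01 ± 0.07, adjusted p = 0.943). Cadm3 had 3 peaks, of which that at chr13:91860397-91860868 was higher, with 2.27 and 2.26 CPM in VitC, against 1.17 and 1.36 CPM in control libraries (0.88 ± 0.18, adjusted p = 2.17e-05). Its peak of highest level, at chr13:91843728-91844440, was not called, with 3.54 and 3.08 CPM in VitC, against 3.52 and 3.66 CPM in control libraries (-0.08 ± 0.12, adjusted p = 0.552; 0.34 when scaled by all counted reads). The sum of Cadm1 was higher (0.26 ± 0.05, adjusted p = 4.2e-05), and that of Cadm3 was not called (0.14 ± 0.09, adjusted p = 0.15).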

How the data were processed

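RNA, hMeDIP and input libraries were analysed in 3 VitC and 3 control samples each, grouped by the submitters' labels. The deposited tables hold raw counts, one table per assay, of reads in each gene or peak, with a list of peaks, positions, genes and feature classes. HTSeq, BWA, STAR, Trim Galore and CASAVA 1.4 stand in the submitters' processing notes, with no roles. No source used here gives the genome build, annotation, peak caller, strand setting or base convention, so overlapping and antisense genes cannot be told apart and positions are printed as listed. The peak list gave symbols to 17003 of the 32883 RNA identifiers. Entries naming no gene held 42.3% to 53.9% of counted RNA reads and were left out. Whether reads are independent molecules is not stated.

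Tests used edgeR 4.0.16 under R 4.3.3 (quasi-likelihood F test, default expression filter, TMM factors, Benjamini-Hochberg adjustment at 0.05 over all features of a table), with treatment as the only term. Gene sums add the counts over a gene's peaks, and the test against input was the interaction of assay and treatment. Levels are CPM scaled by TMM factors; ratios to input use all counted reads. Likeness to Gldn used log2(CPM + 0.5) and left out the 10 genes and those without a proper symbol. hMeDIP replicates 1 and 3 were summed where chi-square per degree of freedom was at most 1.1 and other pairs of the group were above. In controls the other pairs gave 1.10 and 1.47, but in VitC 1.09 and 1.08, just under the limit; the VitC pair was summed as well, since the other VitC pairs differed beyond sampling noise, and fits with the controls alone summed and with no sums are alternatives.

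Replicate numbers are not said to pair samples and, in RNA, did not (correlations of same-numbered deviations 0.17, 0.05 and 0.01). The 10 genes, the marker and background lists and the tests were chosen with earlier results of these data known. The genes named were all 10 members, for each the peak of highest level, the called peak of smallest p in each direction and any promoter peak, and up to 4 called genes per background list. Peaks and genes named beyond that (neighbouring pairs, second peaks of L1cam and Cadm4, Ezr, Iglon5, the first 9 peaks of Negr1, the blocks of lower peaks of Nfasc) were chosen after their values were seen. Of the Schwann cell marker list, 1 gene and the sum over the list are not reported here. Alternatives were other scalings, DESeq2 1.42.0, no filter, the replicate block and leaving out each replicate. RefSeq sequences were read with Python 3.11.15 and pandas 2.3.3, and figures drawn with matplotlib 3.10.9.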

Additional observations from a re-analysis of the deposited data

How the results depend on the processing

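The hMeDIP scale mattered most. Scaled by all counted reads instead of TMM factors, 99 member peaks were higher and 39 lower (60 and 60 with TMM), and 7 gene sums were higher and 2 lower (4 and 4). The sums of Nfasc (0.381, adjusted p = 0.00178), Nrcam (0.266, adjusted p = 0.0443) and Negr1 (0.234, adjusted p = 0.0841) then turned positive, as did an Nrcam peak (0.0937), an Ncam1 peak (0.0404) and a Cadm3 peak (0.337). DESeq2 called 30 member peaks higher, in place of 60, and 54 lower; the cause was not tested. The replicate block gave 57 higher and 60 lower member peaks, 4 higher and 4 lower sums, and 35 and 50 peaks against input, and in RNA 7 genes called higher, Nrcam being the one added, as with DESeq2, with no filter and without VitC replicate 2; the numbers are not said to pair samples. With crossed pairing, 62 member peaks were higher and 61 lower. That pairing was picked because same-numbered hMeDIP samples correlated at -0.20. With 2 samples a group, that value fixes the correlation of crossed samples at 0.20, so the crossed fit is no independent check of pairing. Leaving out a replicate gave 43 to 58 higher and 55 to 65 lower member peaks, 4 and 4 sums, and 6 to 7 genes higher in RNA. With each library as its own replicate, 60 peaks were higher and 63 lower, and with the controls alone summed 59 and 64. Input gave 0 called peaks under every alternative run. Depth limits Nfasc RNA, at 1 to 5 reads a library. Intervals and tests cover counting error and the spread of these libraries only.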
